A study of Arabidopsis thaliana with 6 samples.

Results

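CYP707A1, CYP707A2, CYP707A3 and CYP707A4 are the 4 genes of the CYP707A family, one branch of the cytochrome P450 enzymes of Arabidopsis thaliana. They were taken by their locus numbers (AT4G19230, AT2G29090, AT5G45340 and AT3G19270) from a table of 33602 genes. RNA was read from whole seeds of the wild type Columbia-0 (Col-0), 3 biological replicates for each of 2 light treatments. All seeds took up water for 2 h in darkness, received a far-red pulse that lowered the active phytochrome left from the mother plant, and were kept for 3 days at 5°C in darkness. The Rp seeds then received a red pulse of 20 min (0.05 µmol m-2 s-1), which sets the share of active phytochrome (Pfr/P) to 0.87. The FRp seeds, the controls, received a far-red pulse of 20 min (42 µmol m-2 s-1), which sets Pfr/P to 0.03. Seeds were collected 12 h after the pulse. A sample therefore mixed embryo, endosperm and seed coat, and fewer cells of a type and less RNA per cell cannot be told apart in it.

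Abscisic acid (ABA) keeps a seed dormant and represses germination. The CYP707A enzymes are ABA 8′-hydroxylases: they oxidize ABA at its 8′ methyl group, and the product rearranges to phaseic acid, which is a much weaker hormone. This is the main route of ABA breakdown in Arabidopsis. CYP707A2 is the member best known from imbibed seeds, where it acts in the hours after water uptake. CYP707A1 is best known from seed development, CYP707A3 from leaves and stems after rewetting, and CYP707A4 is the least studied. The comparison asks how much transcript of each gene the seeds held after a pulse that promotes germination, against a pulse that does not.

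CYP707A1 and CYP707A3 are the closest pair of the family. Their coding sequences were 82.6% identical over 1389 aligned bases, against 62.1% to 64.2% for the other 5 pairs, and their longest shared run was 44 bases. No member overlapped another annotated locus. The pair was also alike upstream of the gene. In the 250 bases before to 50 after the start of each gene as RefSeq gives it (genome TAIR10.1), 6 short motifs were searched on either strand. They were the G-box CACGTG, the ABRE core ACGTGNC, the PBE CACATG, the RY element CATGCA, the GARE TAACAAA and the I-box GATAAG. The G-box is bound by phytochrome interacting factors and by ABA-response factors, and the ABRE core overlaps it. CYP707A1 and CYP707A3 each held a G-box, an overlapping ABRE core and an RY element, and no member held any of the other 3 motifs. CYP707A2 and CYP707A4 held none of the 6. Among 27443 promoter windows of protein-coding genes, 7.68% held a G-box, 10.3% an ABRE core and 9.72% an RY element. Letters of these motifs are a description of the window and say nothing of what binds there. The upstream 250 bases of the pair are shown, 5′ to 3′ on the strand of the gene, with the motif letters in capitals, because the 2 genes moved in opposite directions. They lie at chr4:10521009-10521258 (plus strand) and chr5:18371022-18371271 (minus strand).
CYP707A1: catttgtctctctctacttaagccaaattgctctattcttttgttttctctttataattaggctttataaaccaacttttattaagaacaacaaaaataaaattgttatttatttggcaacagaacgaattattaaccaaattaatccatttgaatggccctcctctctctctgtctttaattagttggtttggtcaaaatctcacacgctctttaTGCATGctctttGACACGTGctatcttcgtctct
CYP707A3: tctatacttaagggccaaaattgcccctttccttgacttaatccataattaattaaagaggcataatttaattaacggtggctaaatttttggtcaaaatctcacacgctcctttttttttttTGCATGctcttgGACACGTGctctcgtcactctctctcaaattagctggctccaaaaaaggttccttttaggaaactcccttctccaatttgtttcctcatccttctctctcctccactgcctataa
The RY element began 14 bases before the G-box in both genes, an arrangement found in 10 of the 27443 windows (0.0364%), the pair itself included. That arrangement was looked for after it had been seen in the pair. The G-box began at position −20 from the RefSeq start in CYP707A1 and at −113 in CYP707A3. From the start in the counted annotation it began at −140 and −143. The longest run that the pair shared upstream was 23 bases, against 9 or 10 bases for every other pair of members.

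Gene reads came to 26057621 to 31286686 in the Rp libraries, against 24234421 to 32387080 in the FRp libraries. Much of the transcriptome differed between the treatments. Of 16924 genes tested, 4877 were called higher after the Rp (28.8%) and 4536 lower (26.8%). A call needed a fold change over 1.5 and a Benjamini-Hochberg adjusted p under 0.05 in edgeR's quasi-likelihood test. All 5 seed reserve and late embryogenesis markers fell, and none was at 0. Their summed level was 6219 to 9483 counts-per-million (CPM) in the Rp libraries, against 107357 to 124934 CPM in the FRp libraries. Of 2 endosperm markers, EXPA2 rose and EPR1 fell, and of 4 seedling leaf markers 3 rose and 1 fell, with a summed level of 550 to 800 CPM in Rp libraries against 288 to 394 CPM in FRp libraries. The part of these tissues in the results was not tested. The choice of scale moved all genes: with library totals in place of the trimmed mean of M-values (TMM), the median over all tested genes of the log2 fold change was 0.45, against 0.02 with TMM. Rp replicate 3 stood apart from the rest in the evenness of its reads. Its junction nearest the 5′ end held 45.8% of the reads of the junction nearest the 3′ end in the median of 5287 genes, against 14.3% and 16.4% in the other Rp libraries and 19.3% to 20.0% in the FRp libraries. Results were therefore also computed without it.

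CYP707A2 was the most abundant member in every library. Its locus lies at chr2:12494851-12499723 on the minus strand. It had 1102, 907 and 1403 reads in Rp replicates 1 to 3, against 462, 668 and 553 reads in FRp replicates 1 to 3. Scaled with TMM, these were 32.3, 30.4 and 38.0 CPM after the Rp, against 23, 22.9 and 21.9 CPM after the FRp. The groups did not overlap, which also held for 78.3% of all tested genes. CYP707A2 averaged 33.6 ± 3.98 CPM in Rp seeds and 22.6 ± 0.647 CPM in FRp seeds (SD, n = 3 each). Its log2 fold change was 0.57 (SE 0.10, adjusted p = 0.000287, edgeR quasi-likelihood test), that is 1.49-fold higher after the Rp. CYP707A2 so passed the p-value and stayed just under the fold threshold, whose log2 is 0.58, and was not called. Of all tested genes, 75.2% passed the p-value alone. The side of the threshold turned on single libraries and on scaling. The log2 fold change was 0.47 without Rp replicate 3, 0.60 without Rp replicate 1 and 0.63 without Rp replicate 2, with a call in the last 2 cases. With library totals it was 1.0 and called higher, as were 44.5% of all tested genes on that scale.

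CYP707A3 rose. Its locus lies at chr5:18368642-18370991 on the minus strand. Reads numbered 278, 209 and 243 after the Rp, against 31, 28 and 38 after the FRp. These were 8.14, 7.01 and 6.59 CPM in Rp seeds, against 1.54, 0.962 and 1.5 CPM in FRp seeds. The groups did not overlap, as was true of 78.3% of all tested genes. CYP707A3 averaged 7.25 ± 0.804 CPM in Rp seeds and 1.34 ± 0.325 CPM in FRp seeds (SD, n = 3 each). The log2 fold change was 2.45 (SE 0.23, adjusted p = 9.06e-07, edgeR quasi-likelihood test), and 28.8% of all tested genes were called higher. Of tested genes, 3.65% had a larger log2 fold change. To be tested, a gene had to hold enough reads per base of exon in at least 1 treatment. CYP707A3 did so only in Rp seeds, with 0.128 reads per base, against 0.0170 in FRp seeds. Its entry into the test and its rank thus depended in part on its high level in Rp seeds. With no filter on low counts its log2 fold change was 2.45 and it was called higher. Its rank there was not computed. The call held in each of the 15 other settings, with log2 fold changes of 2.24 to 2.88 and of 2.52 without Rp replicate 3. Among these settings, the adjusted p alone and a fold change over 2 only changed the threshold on the same fit. The adjusted p alone could not have removed the call.

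CYP707A1 moved the other way at a low level. Its locus lies at chr4:10521379-10523961 on the plus strand. It had 51, 44 and 54 reads after the Rp, against 82, 76 and 76 reads after the FRp. These were 1.49, 1.47 and 1.46 CPM in Rp seeds, against 4.08, 2.61 and 3.00 CPM in FRp seeds, and the groups did not overlap. Of all tested genes, which leave out CYP707A1, 78.3% did not overlap either. The share among genes with as few reads was not computed. The mean was 1.48 ± 0.0150 CPM in Rp seeds and 3.23 ± 0.763 CPM in FRp seeds (SD, n = 3 each). The filter on low levels asks for over 10 reads and over 0.05 reads per base of exon in at least 1 treatment. CYP707A1 had 0.0249 reads per base after the Rp and 0.0391 after the FRp, so it was left out of the test. With no such filter its log2 fold change was −1.12 (SE 0.28, adjusted p = 0.000697, edgeR quasi-likelihood test) and it was called lower, as were 19.7% of the 25888 genes then tested. With a filter of 50 mean reads in 1 treatment in place of the read density it was −1.13 (SE 0.26, adjusted p = 0.00178, edgeR). It was called lower there, as were 4628 of the 17253 genes then tested. CYP707A1 passed that filter only through the FRp seeds, with a mean of 78 reads, against 49.7 in Rp seeds. Scaled by library totals, with no test, CYP707A1 had 1.71 ± 0.0188 CPM in Rp seeds and 2.76 ± 0.548 CPM in FRp seeds (SD, n = 3 each).

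CYP707A4 was not detected. Its locus lies at chr3:6673727-6676520 on the minus strand. It had 0 reads in all 6 libraries, 173480829 gene reads together. A count of 0 allows up to 3 reads, which is 0.0926 to 0.124 CPM depending on the library. No fold change can be given for it. Of the 4 members, then, 2 passed the filter and 1 was called, CYP707A3, against 55.6% of tested genes called in either direction, 28.8% higher and 26.8% lower.

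**Figure D1:**
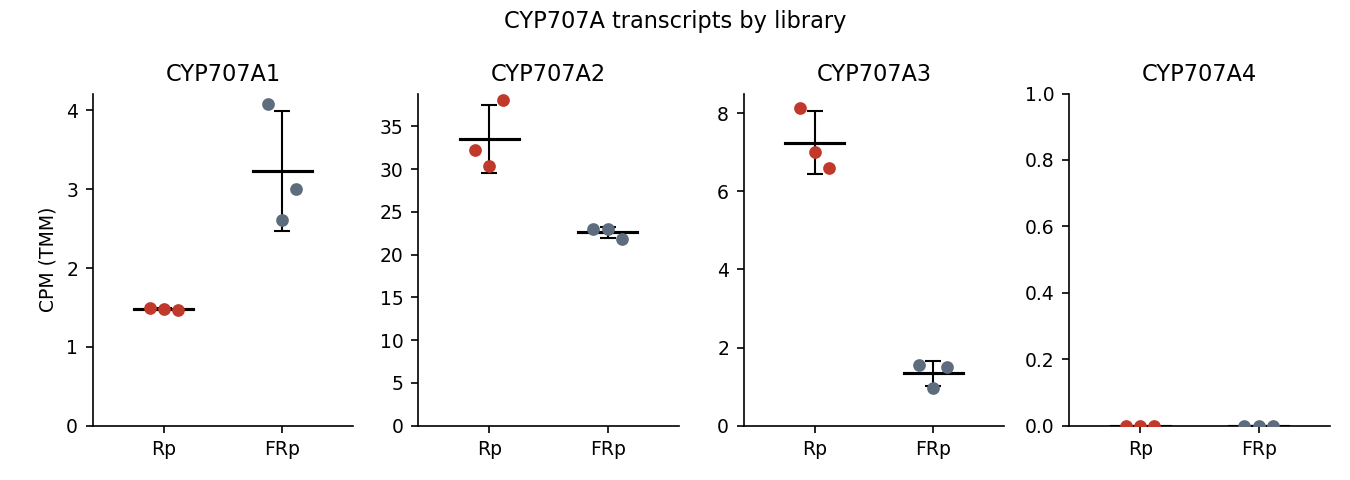
Transcript level of each CYP707A gene in counts-per-million (CPM, TMM-scaled) in the 3 Rp and 3 FRp libraries; points are libraries, the line is the mean and the bar the SD. CYP707A2 and CYP707A3 were higher in every Rp library than in any FRp library, CYP707A1 was lower in every Rp library, and CYP707A4 was at 0. Of all tested genes, which leave out CYP707A1 and CYP707A4, 78.3% did not overlap between the groups.

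Levels of different genes can be set side by side only per length. Per kilobase of exon, CYP707A2 stood at 17.0 CPM in Rp seeds and 11.4 CPM in FRp seeds, CYP707A3 at 3.81 and 0.702, and CYP707A1 at 0.741 and 1.62. CYP707A2 lay above 63.0% of tested genes after the Rp and above 49.3% after the FRp. CYP707A3 lay above 18.3% of tested genes after the Rp and 2.42% after the FRp. The family together came to 21.6 ± 1.83 CPM per kilobase in Rp seeds and 13.8 ± 0.642 in FRp seeds (SD, n = 3 each). The lowest Rp library had 19.8 and the highest FRp library 14.5 CPM per kilobase.

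The order of the minor members switched between the treatments. CYP707A3 made up 17.8% ± 2.72 of the family per length in Rp seeds and 5.09% ± 1.16 in FRp seeds. CYP707A1 made up 3.45% ± 0.304 in Rp seeds and 11.7% ± 2.22 in FRp seeds (SD, n = 3 each). CYP707A3 so came second after the Rp and CYP707A1 second after the FRp, in each of the 3 libraries of a group. The share of CYP707A2 was 78.8% ± 2.97 in Rp seeds and 83.2% ± 3.12 in FRp seeds, and these overlapped. Two-sided exact permutation tests over the libraries gave p = 0.1 for CYP707A1 and CYP707A3 (adjusted 0.15) and p = 0.2 for CYP707A2. With 3 libraries against 3, 0.1 is the smallest p that such a test can give.

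**Figure D2:**
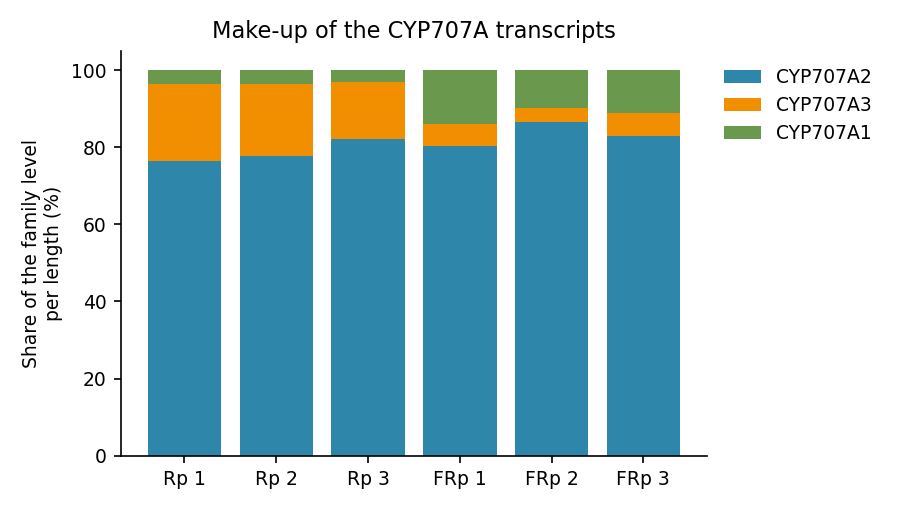
Share of each gene in the family level per length (percent of the summed reads per base of exon), for the 3 Rp and 3 FRp libraries; CYP707A4 was at 0. CYP707A2 held 76.5% to 86.5% in every library, while CYP707A3 was the second largest in the Rp libraries and CYP707A1 in the FRp libraries.

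Ratios of 2 members within a library need no scaling. The log2 ratio of CYP707A1 to CYP707A3 reads was −2.45 to −2.17 in Rp libraries, against 1.0 to 1.44 in FRp libraries. The difference, Rp minus FRp, was −3.57. For CYP707A1 over CYP707A2 it was −1.67, with ratios of −4.70 to −4.37 after the Rp, against −3.14 to −2.49 after the FRp. For CYP707A2 over CYP707A3 it was −1.90, with ratios of 1.99 to 2.53 after the Rp, against 3.86 to 4.58 after the FRp. None of the 3 ratios overlapped between the groups. Of single tested genes 78.3% did not overlap either, and the share among ratios of other genes was not computed. Each two-sided exact permutation test gave p = 0.1, the smallest possible, and 0.1 after adjustment over the 3 pairs. The 3 pairs with CYP707A4 had no ratio. Without Rp replicate 3 the differences were −3.63, −1.57 and −2.06.

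**Figure D3:**
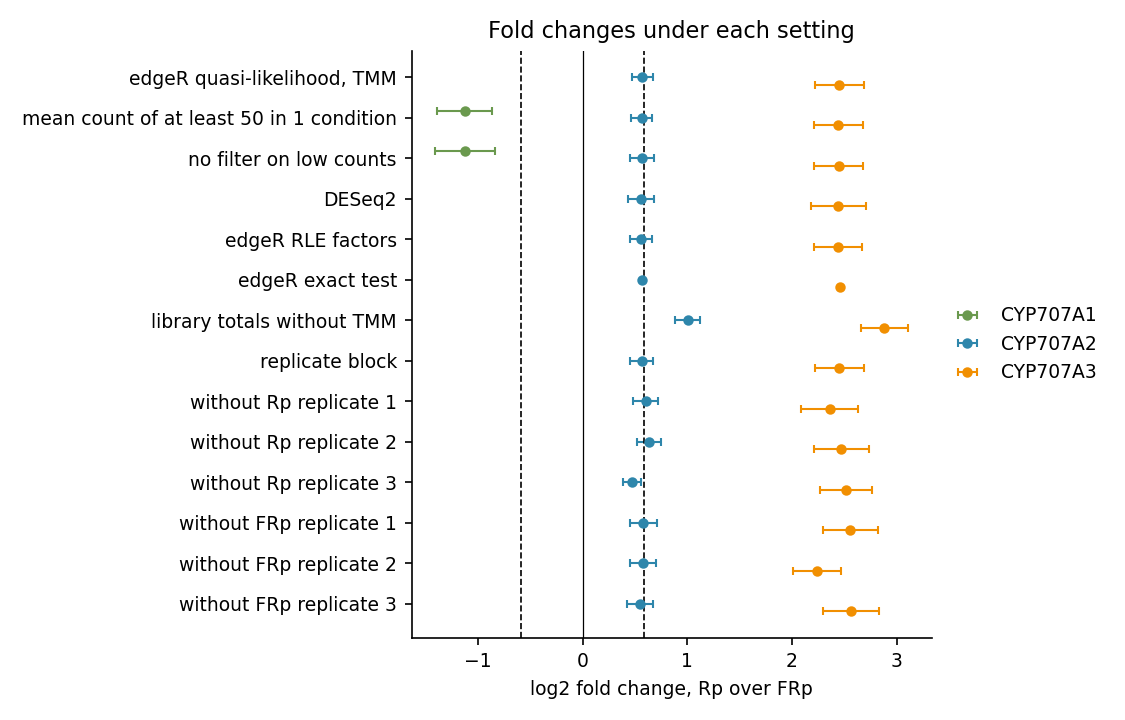
Log2 fold change (Rp over FRp) of CYP707A1, CYP707A2 and CYP707A3 under each processing setting; points are fitted values, bars are standard errors (none for the exact test) and dashed lines mark a fold change of 1.5 either way. CYP707A3 stayed between 2.24 and 2.88, CYP707A2 lay close to the threshold in most settings, and CYP707A1 could be fitted only under the 2 settings that let it pass the filter.

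Reads that cross an exon-exon junction showed the same members along their transcripts. A junction was listed only where all 3 libraries of a treatment held at least 6 reads. CYP707A2 had 7 of its 9 RefSeq introns listed. It had 564, 442 and 703 spliced reads after the Rp, against 213, 323 and 245 after the FRp. As per-million shares of all junction reads this was 57.8 ± 3.33 in Rp seeds and 32.7 ± 2.39 in FRp seeds (SD, n = 3 each), a ratio of 1.77 (two-sided exact permutation p = 0.1). The ratios of the 7 junctions ran from 1.54 to 2.60 with a median of 1.73, against a median of 1.1 over all listed junctions. In 4 of the 7 every Rp library lay above every FRp library, as in 27.1% of 70047 junctions. CYP707A3 had 3 of 5 introns listed, each of them only through its reads in the Rp libraries, so that their ratios of 4.06, 5.93 and 7.85 are a description. It had 77, 57 and 63 spliced reads after the Rp, against 7, 6 and 15 after the FRp. Without Rp replicate 3 the ratio of all spliced reads was 1.73 for CYP707A2 and 6.30 for CYP707A3.

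**Figure D4:**
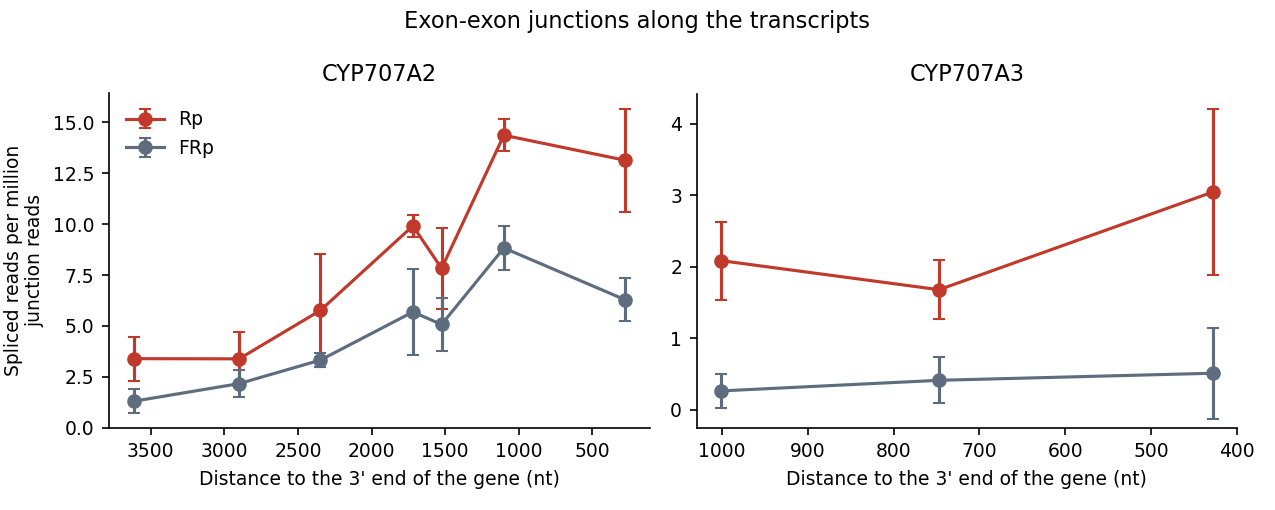
Spliced reads as per-million shares of all junction reads at each listed exon-exon junction of CYP707A2 and CYP707A3, placed by distance to the 3′ end of the gene in nucleotides; points are means and bars SD of 3 Rp or 3 FRp libraries. The means were higher after the Rp by 1.54 to 2.60 times in CYP707A2 and by 4.06 to 7.85 times in CYP707A3, whose junctions were listed only through the Rp libraries, and CYP707A2 had fewer reads toward its 5′ end.

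No junction of CYP707A1 was listed. The same was true of 142 of 375 genes (37.9%) that had 5 or more introns and a mean of 50 to 100 reads, and CYP707A1 averaged 63.8 reads. CYP707A2 spans the longest introns of the family. The introns of its full transcripts measured 105 to 705 nt, against 73 to 121 nt in CYP707A1, 88 to 165 nt in CYP707A3 and 79 to 441 nt in CYP707A4. The 5′ to 3′ ratio of CYP707A2 junctions was 15.2%, 24.6% and 43.3% in Rp replicates 1 to 3, against 14.6%, 15.4% and 34.0% in FRp replicates 1 to 3. Rp replicate 3 was highest here too.

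Intron retention in CYP707A2 was low and no intron passed the test. The percentage of intron retention (PIR) compares reads across an exon-intron boundary with spliced reads. All 7 introns were testable and 0 were called, where a call needed a PIR difference over 0.5 points and an adjusted p under 0.15. Among all 28466 events tested, 2.46% were called. By edgeR, 1 of the 7 introns had an unadjusted p under 0.05. That was the 105-nt intron at chr2:12496376-12496480, with a PIR of 1.90% after the Rp and 8.49% after the FRp (adjusted p = 0.224, edgeR quasi-likelihood test). By limma on log2 ratios 0 were called and 1 had an unadjusted p under 0.05, the same intron (adjusted p = 0.319). The 105-nt intron was called lower only when Rp replicate 2 was left out, with a difference of −7.41 points and an adjusted p of 0.144 (edgeR). Over the other alternatives its adjusted p ran from 0.213 to 0.533, the highest without Rp replicate 3. The other introns, from the 3′ to the 5′ end of the gene, gave these PIR values, none of them called. PIR was 2.94% in Rp seeds and 5.77% in FRp seeds in the 705-nt intron at chr2:12495129-12495833, and 1.41% and 3.69% in the 237-nt intron at chr2:12495953-12496189. It was 4.25% in Rp seeds and 4.79% in FRp seeds in the 379-nt intron at chr2:12496571-12496949, and 2.72% and 5.33% in the 399-nt intron at chr2:12497199-12497597. It was 5.02% in Rp seeds and 9.73% in FRp seeds in the 394-nt intron at chr2:12497751-12498144, and 5.56% and 11.4% in the 375-nt intron at chr2:12498467-12498841. With all libraries the difference was below 0 in all 7, −6.58 to −0.55 points, as for 49.7% of 25661 introns tested. Single libraries moved these differences. That of the 379-nt intron was 1.11 points without FRp replicate 3 and 0.15 without Rp replicate 3. That of the 375-nt intron was −13.4 points without FRp replicate 3, −1.52 without Rp replicate 3 and −0.57 without FRp replicate 2, and that of the 394-nt intron −8.82 without FRp replicate 3 and −1.31 without FRp replicate 2. Boundary reads were also summed over CYP707A2, with 2 reads of FRp replicate 2 that lay outside the 7 introns, where no junction was listed. On this sum PIR was 3.59%, 3.81% and 1.82% in Rp replicates 1 to 3, against 4.05%, 7.58% and 5.77% in FRp replicates 1 to 3. The two-sided exact permutation p was 0.1. The boundary reads alone were 42, 35 and 26 after the Rp, against 18, 53 and 30 after the FRp. As per-million shares of all junction reads they came to 3.63 ± 1.22 in Rp seeds and 4.06 ± 1.48 in FRp seeds (SD, n = 3 each; two-sided exact permutation p = 0.9). The groups overlapped in boundary reads and not in spliced reads. The share of genes for which this holds was not computed. The summed PIR was not a planned result.

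The boundary reads of several CYP707A2 introns lay mostly in 1 of the 2 boundary counts that the table gives per intron. Which of these counts is the donor and which the acceptor side could not be settled from annotated cases, so no side is named. In the 379-nt intron, 25 reads in Rp seeds and 12 in FRp seeds stood in the second count, against 1 and 2 in the first. In the 237-nt intron, 9 reads in Rp seeds and 14 in FRp seeds stood in the second count, against 3 and 2 in the first. The next 3 introns had more reads in the first count. The 105-nt intron had 7 reads in Rp seeds and 20 in FRp seeds there, against 2 and 3 in the second count. The 399-nt intron had 9 in Rp seeds and 9 in FRp seeds, against 1 and 0. The 375-nt intron had 10 in Rp seeds and 8 in FRp seeds, against 2 and 0. RefSeq holds a transcript that ends within the 379-nt intron (NM_001336199.1) and another that starts within the 375-nt intron (NM_001336198.1).

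The last intron of CYP707A3 is retained in a RefSeq transcript, NM_123902.3. It measures 93 nt, at chr5:18369071-18369163. Its spliced reads were 37, 29 and 20 after the Rp, against 2, 0 and 10 after the FRp. Its boundary reads numbered 11 in Rp seeds and 3 in FRp seeds, a PIR of 6.01% and 11.1%. CYP707A3 was under the read density filter in FRp seeds, so none of its introns was tested. Whether retention in CYP707A3 differed between the treatments is therefore not known, and no limit of detection was computed.

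Genes around the family in the ABA pathway moved in several directions. Of 10 genes of ABA synthesis, 7 were tested, 5 fell and 1 rose, against 26.8% lower and 28.8% higher of all tested genes. The median log2 fold change of the 7 was −0.72, against 0.02 over all tested genes. ABA1, the zeaxanthin epoxidase, averaged 25.7 ± 3.91 CPM in Rp seeds and 124 ± 5.59 CPM in FRp seeds (log2 fold change −2.27). NCED9, a dioxygenase that cleaves the carotenoid precursor, averaged 1.62 ± 0.248 CPM after the Rp and 7.69 ± 0.179 CPM after the FRp (−2.24). NCED6 (−0.89), AAO3 (−0.72), the abscisic aldehyde oxidase, and ABA3 (−0.65), which sulfurates its cofactor, also fell. ABA4, of neoxanthin synthesis, rose (0.75). With library totals only ABA1 and NCED9 were still called lower, and ABA4 higher.

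Of 7 genes that inactivate ABA by other routes or release it again, 5 were tested, 3 fell and none rose. These 60% called are close to the 55.6% of all tested genes. UGT71C5, a glucosyltransferase that makes the ABA glucose ester, averaged 5.40 ± 1.35 CPM in Rp seeds and 25.6 ± 0.131 CPM in FRp seeds (log2 fold change −2.25). UGT71B6, of the same reaction, had a log2 fold change of −2.15, and AT3G21790, annotated as a UDP-glycosyltransferase, one of −0.93. UGT71B6 had few reads, 22, 34 and 18 after the Rp, against 85, 91 and 67 after the FRp. The filter has to be passed in 1 treatment only, so a gene can enter the test through the group where it is high. AT3G21790 was not called with library totals. The fold changes of these conjugating enzymes thus had the opposite sign to those of CYP707A2, which was not called, and CYP707A3. They had the same sign as that of CYP707A1 with no filter on low counts (−1.12). Of 4 ABA transporters, 2 were tested and both rose, where 28.8% of all tested genes did. ABCG25, an exporter, averaged 44.0 ± 2.86 CPM after the Rp and 19.3 ± 3.16 CPM after the FRp (1.19). ABCG30, an importer, averaged 40.5 ± 1.46 CPM after the Rp and 9.58 ± 0.908 CPM after the FRp (2.08). With no filter on low counts, where 42% of all genes were called in either direction, all 4 were called, and ABCG40 rose (log2 fold change 1.12) while ABCG31 fell (−1.42).

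Of 5 seed regulators known to act upstream of CYP707A genes or beside them, all were tested, 2 fell and 1 rose, that is 60% called against 55.6% of all tested genes. SOM, a zinc finger protein that represses germination in darkness, averaged 157 ± 7.80 CPM in Rp seeds and 714 ± 58.5 CPM in FRp seeds (log2 fold change −2.19). DOG1, a promoter of dormancy, fell by 2.29 on the log2 scale, with 55, 29 and 26 reads after the Rp, against 158, 134 and 95 after the FRp. ABI4, a factor that binds CYP707A1 and CYP707A2 promoters as a repressor, had 2052, 1551 and 2129 reads after the Rp, against 244, 277 and 292 after the FRp. It averaged 56.6 ± 4.17 CPM after the Rp and 11.1 ± 1.38 CPM after the FRp (2.36). PIF1, the phytochrome interacting factor that represses germination, and NLP8, a nitrate-response factor that binds the CYP707A2 promoter, were not called (0.09 and −0.23). Of 9 transcripts that ABA raises, 8 were tested and 7 fell, with log2 fold changes of −3.57 to −1.37, where 26.8% of all tested genes fell. They were EM1, EM6, RAB18, RD29A, RD29B, ABI5 and HAI2. EM1, a late embryogenesis protein, averaged 245 ± 69.3 CPM in Rp seeds and 2906 ± 263 CPM in FRp seeds. EM1 is also among the seed markers, which all fell, and their part in this result was not tested.

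Other cytochrome P450 genes give the family its setting. Of 265 such genes, the 4 members included, 100 were tested, 32 rose and 50 fell (82% called, against 55.6% of all tested genes). CYP707A3, which passed the filter only through the Rp seeds, was 13th of the 100 by log2 fold change. With library totals 39 rose and 34 fell. Of 8 P450 genes of gibberellin and brassinosteroid synthesis, 6 were tested. CYP90B1 (DWF4), the first step of brassinosteroid synthesis, rose (log2 fold change 1.35), CYP90C1 (ROT3) fell (−1.19), and the other 4 were not called. Without Rp replicate 3 the counts of genes that rose and fell were the same in the lists of ABA synthesis, other inactivation, transport, regulators, ABA-responsive transcripts and hormone P450 genes. Of all P450 genes, 97 were then tested, 32 rose and 47 fell.

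**Figure D5:**
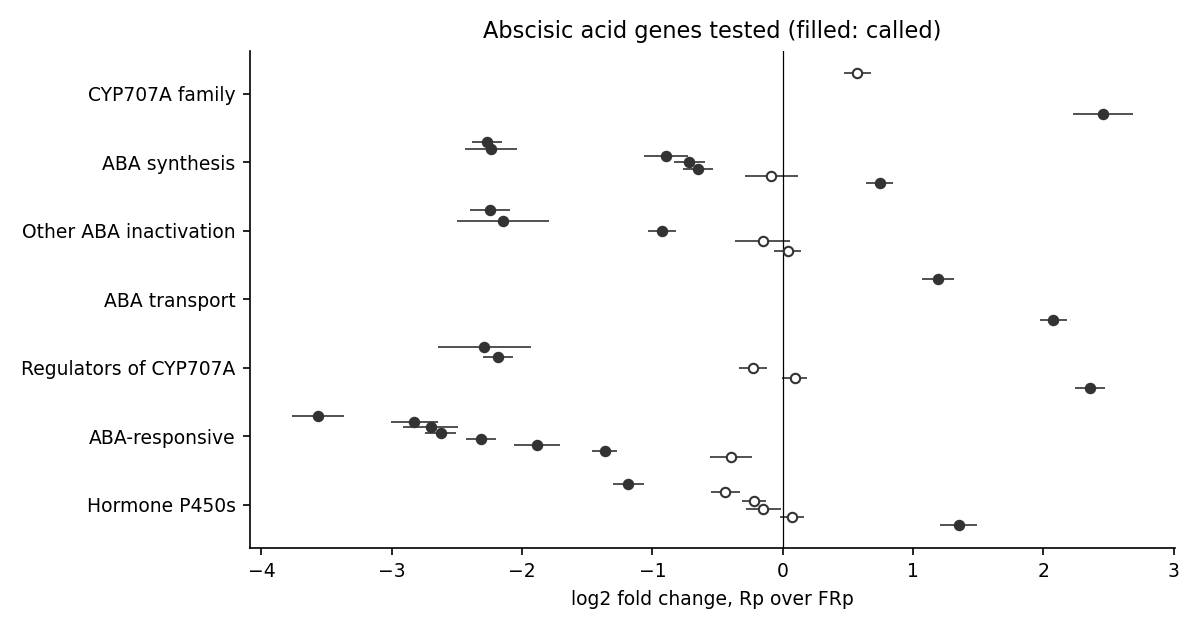
Log2 fold change (Rp over FRp) of each tested gene of the CYP707A family and of 6 lists of abscisic acid and P450 genes; points are genes, bars are standard errors and filled points were called. CYP707A3 and the transporters lie on the right, while most genes of ABA synthesis and most ABA-responsive genes lie on the left.

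The genes most like each tested member were found by Pearson's r of log2 CPM over the 6 libraries, among 16234 tested genes with a mean of 50 or more reads. For CYP707A2 they were ER, a receptor kinase of growth (r = 0.999), AT4G26900, of histidine synthesis (r = 0.998), and CAC3, a subunit of plastid acetyl-CoA carboxylase (r = 0.998). Their log2 fold changes were 0.66, 0.71 and 0.61. For CYP707A3 they were AIR12, an auxin-induced protein, UGT78D1, a flavonol glycosyltransferase, and HB23, a homeobox factor, with log2 fold changes of 1.93, 1.05 and 2.24. With 2 groups of 3 libraries such values are common: 3516 genes had r above 0.9 with CYP707A2 and 4629 with CYP707A3. The points share the treatment, so they are given as a description without a test.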

How the data were processed

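Poly(A) RNA of 6 whole-seed samples (3 Rp, 3 FRp) was sequenced as paired ends. The authors aligned reads to TAIR10 with TopHat 2.1.1 (maximum intron 5000 nt; SAMtools 1.3 is also named per the labels) and deposited whole-number counts per gene, effective exon length, and counts of reads on junctions and exon-intron boundaries per splicing bin. The fraction of retention or inclusion that the authors deposited was used only to check the counts, from which it was recomputed for 71920 events, 41 of them differing by over 0.0001. Whether counting used strand is not given in the sources used here. The fraction is pooled per treatment, so it was not tested.

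Genes with a mean over 10 reads and over 0.05 reads per base of exon in 1 treatment were tested, all together, in edgeR 4.0.16 (R 4.3.3; TMM, quasi-likelihood, Benjamini-Hochberg). SE is the fold change over the square root of F. Events were tested in edgeR with a term per library, if the gene passed the filter in both treatments, with a mean of at least 10 junction reads in each and at least 5 reads on each side. Shares and ratios were tested by exact permutation over libraries (scipy 1.17.1). Alternatives used DESeq2 1.42.0, limma 3.58.1 and other filters and scalings. Tests were tried on simulated data. The floor given for a count of 0 covers counting error only. RefSeq (TAIR10.1) gave sequences and introns: all 71499 listed junctions on chromosomes 1 to 5 had GT-AG (98.9%) or a GC-AG or AT-AC (1.15%) splice site there.

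The members and gene lists were chosen with earlier results of these data known. All 4 members, every called gene of the lists, all testable member events and the 3 most alike genes per tested member could be named. Coordinates of genes are those of the counted TAIR10 table. The samples are given as biological replicates, from 1 seed bulk.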

Additional observations from a re-analysis of the deposited data

How the results depend on the processing

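CYP707A3 was called higher in all 15 alternatives, of which the adjusted p alone and a fold change over 2 only changed the threshold on the same fit. The number of members called was 2 in place of 1 with no filter on low counts and with a mean count of at least 50, which admitted CYP707A1 (log2 fold change −1.12 and −1.13), and with library totals or the adjusted p alone, which added CYP707A2 (1.0 and 0.57). On library totals with neither filter nor TMM, an alternative added after the data were seen, CYP707A1 had a log2 ratio of −0.69. Leaving out single libraries gave 1 to 2 members called and 0.47 to 0.63 for CYP707A2. A fold change over 2 lowered the genes called in all to 5757. Leaving out single libraries gave 0 to 1 CYP707A2 introns called. Library totals made 74.6% of all calls higher, against 51.8% with TMM. Calls over the pathway lists together ran from 18 to 28, against 23. Those of ABA synthesis fell to 3 with library totals and 2 at a fold change over 2, against 6. Shares, ratios of members and junction ratios kept their direction in every alternative run. CYP707A4 could be fitted nowhere. Replicate numbers did not pair the libraries: deviations of same-numbered libraries correlated at 0.04, −0.11 and −0.05 over genes. A replicate block gave 9357 genes called, 0.57 for CYP707A2, 2.45 for CYP707A3 and 0 introns called. Ratios of members within same-numbered libraries gave an exact sign-flip p of 0.25, the smallest possible for 3 pairs. Where a call moved, the cause was not tested beyond the change of scale, filter or libraries. Depth limits CYP707A1, CYP707A4 and CYP707A3 splicing.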
